A study of Drosophila melanogaster with 8 samples.

Results

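The gap and head segmentation genes described here are hb, Kr, kni, gt, tll, hkb, cad, oc, ems and btd, transcription factor genes that divide the early Drosophila embryo into body regions. They were taken by symbol from the deposited tables, where each of the 10 symbols matched 1 of 17730 gene rows. Polyadenylated RNA was sequenced from ML-DmD17-c3 (D17-c3) cells, a line grown from imaginal discs, the larval precursors of adult appendages, and from S2-DRSC cells, a stock of the S2 line, which came from embryos and resembles blood cells (hemocytes). Each line was represented by 4 libraries from separate culture flasks, neither line carried a treatment or an engineered change in the labels, and the study's subject was the Polycomb group of chromatin proteins. Each line is a single stock, so the replicate spread below is the spread between flasks and not between independently derived lines.

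In the embryo, maternal gradients switch on gap genes in broad bands, gap proteins repress one another to sharpen the borders, and the bands then position the pair-rule stripes. Many gap genes are used again later, in neuroblasts, gut, trachea and sense organs. After their early activators have gone, Polycomb group proteins are known to keep gap genes silent in cells where they were off.

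Total expected counts, RSEM's estimate of the reads from each gene, ran from 76822525 to 110163700 per library. D17-c3 replicate 2 stood apart from its group: the chi-square of counts per degree of freedom was 409 to 580 in its pairs with the other D17-c3 libraries and 46.8 to 133 among those. The summed marker levels of the lines differed in the direction of their labels, but most hemocyte markers were also present in D17-c3. At least 1 TPM in every D17-c3 library was reached by 9 of 10 hemocyte markers, with srp highest, and by 8 of 12 imaginal epithelium markers. In S2-DRSC these numbers were 10, with Nplp2 highest, and 3. The gene sd was the highest imaginal epithelium marker in both lines. Summed over 10 hemocyte markers the level was 207 to 347 TPM (RSEM's level per transcript length) in D17-c3 and 9013 to 11008 TPM in S2-DRSC, and summed over 12 imaginal epithelium markers it was 456 to 572 TPM in D17-c3 and 76.2 to 89.8 TPM in S2-DRSC.

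One of the 10 genes, gt, was expressed at a clear level in both lines, and it was higher in D17-c3. The other 9 genes reached at most 0.408 CPM, counts scaled by library size and composition, in any library. Among these, oc and Kr were a little higher in D17-c3, cad was higher in S2-DRSC, and hb, kni, tll, hkb, ems and btd were at or close to the floor of 3 counts per library, the limit that a count of 0 allows. The gene gt alone held 91.9% to 95.4% of the counts of the 10 genes in D17-c3 libraries, and 76.4% to 83.2% in S2-DRSC libraries. In bulk libraries fewer expressing cells and less RNA per cell cannot be told apart.

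**Figure D1:**
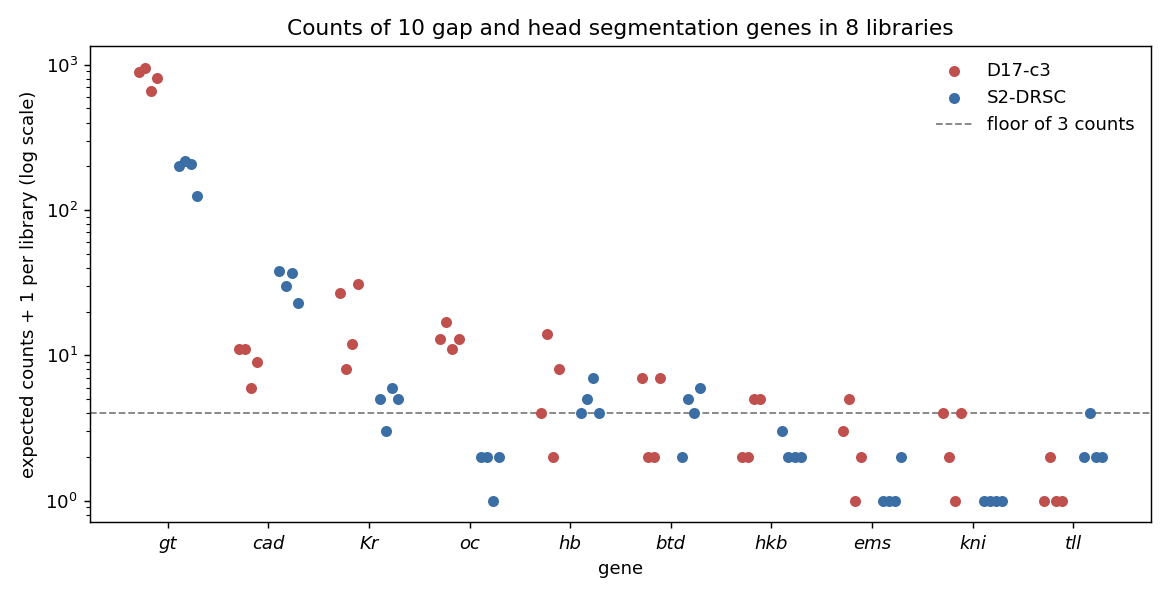
Expected counts plus 1 (log scale) of each of the 10 genes in the 4 D17-c3 libraries (red, left) and the 4 S2-DRSC libraries (blue, right), with the floor of 3 counts as a dashed line. Only gt exceeds 100 counts, in all 8 libraries, and kni and tll never exceed 3 counts.

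Levels between genes were compared per transcript length, in TPM. In D17-c3 the mean level of gt was 8.15 ± 1.42 TPM (SD, n = 4), followed by Kr at 0.115 ± 0.065 TPM and cad at 0.060 ± 0.014 TPM, whose libraries overlapped. In S2-DRSC gt averaged 1.51 ± 0.267 TPM, followed by cad at 0.18 ± 0.036 TPM and Kr at 0.020 ± 0.0082 TPM, and here the libraries of gt, cad and Kr did not overlap one another. By mean TPM gt ranked 6876 of the 17730 genes in D17-c3 and 8105 in S2-DRSC, so it was a gene of middling level in both. The deposited TPM values are given to 2 decimals, too few to order the genes below Kr and cad. The libraries of Kr overlapped those of hb, btd, hkb, tll and ems in S2-DRSC. In D17-c3 those of Kr and of cad each overlapped those of oc, hb and hkb. The places of Kr in both lines and of cad in D17-c3 are therefore not resolved.

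Of the 10 genes, 3 had enough counts to be tested (gt, oc and cad), and each of them passed the edgeR quasi-likelihood test at a Benjamini-Hochberg adjusted p under 0.05, 2 toward D17-c3 and 1 toward S2-DRSC. Over all 11606 genes tested, 75.2% passed, 39.1% as higher in D17-c3 and 36.1% as higher in S2-DRSC. A gene whose counts pass the minimum in 1 line only must differ to be tested at all, as was the case for oc and cad, so the count of 3 is a description.

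The gene gt (giant, FBgn0001150) encodes a basic leucine zipper protein that acts as a gap gene repressor, setting the borders of Kr and of pair-rule stripes. It lies on X from 2427113 to 2428967 on the minus strand (BDGP6), with 1 annotated transcript of 2 exons and no overlapping gene. It had 9.30, 10.2, 8.27 and 8.87 CPM in D17-c3 replicates 1 to 4, against 2.20, 2.14, 2.20 and 1.56 CPM in S2-DRSC replicates 1 to 4. The lowest D17-c3 library was above every S2-DRSC library, and the libraries of the lines were likewise separate, in one direction or the other, at 71.6% of all tested genes. These values rest on 658 to 954 counts per D17-c3 library and 123 to 218 counts per S2-DRSC library. The fold change was 4.51 (log2 2.17 ± 0.15 SE, adjusted p = 8.84e-07, edgeR), and the log2 value ran from 2.04 to 2.22 when each library was left out in turn. D17-c3 replicate 2, the library that stood apart, had the highest gt level, and without it the log2 fold change was 2.12. On the log2 scale the difference lay far from 0.04, the median of all tested genes.

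**Figure D2:**
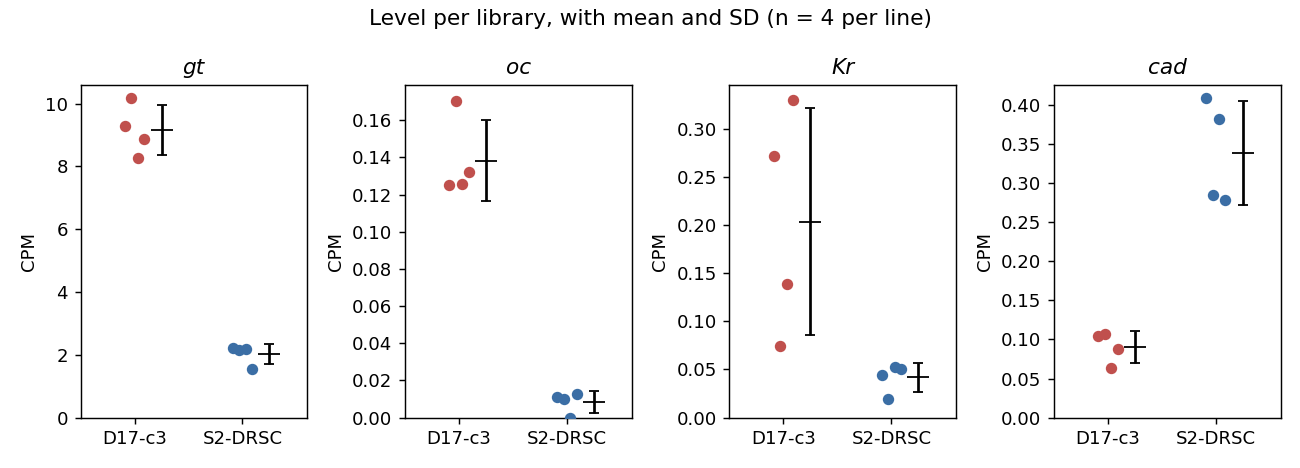
Level in CPM of gt, oc, Kr and cad in each library (points), with the mean and SD of the 4 libraries per line (black), on axes of different height. All D17-c3 libraries lie above all S2-DRSC libraries for gt, oc and Kr, and below them for cad.

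Among the gap genes of the trunk, Kr (Krüppel, FBgn0001325), a zinc finger repressor of the central region, was detected in D17-c3 at a low and uneven level. It had 26, 7, 11 and 30 counts in D17-c3 replicates 1 to 4, or 0.271, 0.0746, 0.138 and 0.33 CPM, against 4, 2, 5 and 4 counts in S2-DRSC replicates 1 to 4, or 0.0441, 0.0196, 0.053 and 0.0507 CPM. Replicates 1 and 4 of D17-c3 were high and replicates 2 and 3 low, and the lowest of them was still above every S2-DRSC library. Summed over libraries the rate was 5.01 times higher in D17-c3 (95% interval 2.85 to 9.40, exact, counting error only). Its counts fell short of the minimum in the test used for the other genes. With no minimum, where 61.1% of 16098 genes passed, the log2 fold change of Kr was 2.23 ± 0.55 (adjusted p = 0.0042, edgeR), and it passed whichever library was left out. The gene (2R, 25226611 to 25231394, plus strand) lies inside CG9380, which is on the minus strand. CG9380 had 0.22 CPM in D17-c3 and 2.66 CPM in S2-DRSC, the opposite direction to Kr. No source used here says if the counter took account of strand, so reads of CG9380 among those of Kr cannot be told apart.

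The gap gene hb (hunchback, FBgn0001180; 3R, 8690980 to 8697822) encodes a zinc finger protein of the anterior embryo and is an early factor in the neuroblast series. It had 3, 13, 1 and 7 counts in D17-c3 replicates 1 to 4, against 3, 4, 6 and 3 counts in S2-DRSC replicates 1 to 4. The lines overlapped, and the highest value was that of D17-c3 replicate 2. The ratio of summed rates was 1.52 (95% interval 0.776 to 3.07), and with no minimum the log2 fold change was 0.53 ± 0.64 (adjusted p = 0.478, edgeR). It turned to -0.12 without D17-c3 replicate 2.

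The gene kni (knirps, FBgn0001320; 3L, 20692330 to 20695378), which encodes a nuclear receptor family protein of the abdominal region and later of trachea and wing veins, was at the floor in both lines. It had 3, 1, 0 and 3 counts in D17-c3 replicates 1 to 4 and 0 counts in each S2-DRSC library. Its summed rate was 0.0194 CPM in D17-c3 (95% exact Poisson interval 0.0078 to 0.040), and 0 counts in S2-DRSC allow up to 0.0101 CPM by the same interval. With no minimum on counts it passed the edgeR test (adjusted p = 0.046), but leaving out D17-c3 replicate 1 or 4, or any of the S2-DRSC libraries, ended the call, with an adjusted p of 0.0712 to 0.106. Its paralog and neighbour knrl (knirps-like), which shares its embryonic pattern, was also low, with 3, 2, 10 and 7 counts in D17-c3 libraries and 1, 0, 0 and 0 counts in S2-DRSC libraries. With no minimum on counts, where 61.1% of 16098 genes passed, knrl passed as higher in D17-c3 (fitted log2 3.91, adjusted p = 0.0054, edgeR). Every S2-DRSC library was below the floor, and D17-c3 replicates 1 and 2 were at or below it. The knrl call was not retested with single libraries left out.

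The terminal gap genes were at or close to the floor. The gene tll (tailless, FBgn0003720; 3R, 30852315 to 30854400), an orphan nuclear receptor gene of the embryo's poles and of neural stem cells, had 1 count over all D17-c3 libraries, in replicate 2, and 6 counts over all S2-DRSC libraries, 1, 3, 1 and 1. The upper 95% limits were 0.0155 CPM in D17-c3 and 0.0357 CPM in S2-DRSC. The gene hkb (huckebein, FBgn0261434; 3R, 4345015 to 4346646), which encodes a zinc finger repressor of the poles, had 1, 1, 4 and 4 counts in D17-c3 replicates 1 to 4, against 2, 1, 1 and 1 counts in S2-DRSC replicates 1 to 4. With no minimum neither passed (adjusted p = 0.0895 for tll and 0.293 for hkb, edgeR), except that tll passed without D17-c3 replicate 2 (adjusted p = 0.0479), whose 1 count was its only one in D17-c3. With all 8 libraries no difference in either gene was detected.

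The gene cad (caudal, FBgn0000251; 2L, 20770731 to 20783135, plus strand) encodes a homeodomain protein of the Cdx family that acts in the posterior embryo and later in the gut, where it is known to restrain antimicrobial peptide genes. It was the only gene of the 10 that passed the test as higher in S2-DRSC. It had 10, 10, 5 and 8 counts in D17-c3 replicates 1 to 4, or 0.104, 0.107, 0.0628 and 0.088 CPM, against 37, 29, 36 and 22 counts in S2-DRSC replicates 1 to 4, or 0.408, 0.285, 0.382 and 0.279 CPM. The lines did not overlap. The log2 fold change was -1.88 ± 0.26 (adjusted p = 0.000119, edgeR), a level 3.67 times higher in S2-DRSC, and it stayed between -1.98 and -1.75 when each library was left out. On log2(TPM + 0.1) the difference was -0.80 and on log2(TPM + 1) it was -0.15, scales that understate changes of low genes. Over 5 gut markers the summed level ran the other way, at 171 to 345 TPM in D17-c3 and 41.7 to 47.0 TPM in S2-DRSC. A further listed marker, Alpha-Gal, had no row. Myo31DF was highest in both lines, and byn was at 0 TPM in S2-DRSC. Only 3 of the 5 reached 1 TPM in every D17-c3 library, and 2 in every S2-DRSC library. The marker fkh ran with cad, at 0.102 ± 0.0391 CPM in D17-c3 and 0.245 ± 0.0862 CPM in S2-DRSC. The part of these markers in the cad result was not tested.

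The head gap genes were low in both lines. The gene oc (ocelliless or orthodenticle, FBgn0004102; X, 8630159 to 8650681, minus strand), which encodes an Otx family homeodomain protein of the head and eye, had 12, 16, 10 and 12 counts in D17-c3 replicates 1 to 4, or 0.125, 0.17, 0.126 and 0.132 CPM, against 1, 1, 0 and 1 counts in S2-DRSC replicates 1 to 4. Every D17-c3 library was above the floor and every S2-DRSC library below it. The ratio of summed rates was 16.9 (95% interval 5.47 to 84.9, counting error only), since only 3 counts stand on the S2-DRSC side. The fitted log2 fold change was 3.87 ± 0.46 (adjusted p = 3.83e-05, edgeR) and its size is uncertain for the same reason. The difference was 0.51 on log2(TPM + 0.1) and 0.06 on log2(TPM + 1), where it did not pass (adjusted p = 0.0958, limma).

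The gene ems (empty spiracles, FBgn0000576; 3R, 13901853 to 13904620), a homeobox gene of the head and the spiracles, had 2, 4, 0 and 1 counts in D17-c3 replicates 1 to 4 and 1 count in all S2-DRSC libraries together. Its neighbouring paralog E5 had 1 count in each D17-c3 library and 0 in each S2-DRSC library. The gene btd (buttonhead, FBgn0000233; X, 9694186 to 9697558), an Sp family zinc finger gene of the head and the ventral appendages, had 6, 1, 1 and 6 counts in D17-c3 replicates 1 to 4, against 1, 4, 3 and 5 counts in S2-DRSC replicates 1 to 4. The lines overlapped, and the ratio of summed rates was 1.09 (95% interval 0.477 to 2.53). With no minimum neither passed the test (adjusted p = 0.119 for ems and 0.949 for btd, edgeR). D17-c3 replicates 1 and 4 held the highest D17-c3 counts of both btd and Kr.

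The paralog of btd on the same chromosome, Sp1, was expressed at a low level in D17-c3. Sp1 shares the appendage role of btd and begins 32090 bp beyond it. It had 63, 38, 48 and 63 counts in D17-c3 replicates 1 to 4, against 1, 1, 1 and 0 counts in S2-DRSC replicates 1 to 4, which is 0.59 ± 0.128 CPM against 0.0079 ± 0.0053 CPM (SD, n = 4 each). The edgeR test gave an adjusted p of 1.09e-06, and the S2-DRSC counts were below the floor, so the size of the fold change is uncertain. The pairs btd and Sp1, kni and knrl, and ems and E5 were named after their values were seen.

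Neighbouring genes differed in both directions. Of 20 nearest protein-coding neighbours, 1 on each side of each gene, 12 were tested. D17-c3 had the higher level at 4 of these and S2-DRSC at 5, and 3 did not pass, against 75.2% passing over all genes. Beside gt, which was higher in D17-c3, the mitochondrial ribosomal protein gene tko, 13346 bp away, was lower in D17-c3 (16.9 ± 4.27 against 25.3 ± 3.75 CPM, log2 -0.58 ± 0.18). Around oc, also higher in D17-c3, both neighbours were lower there: Caf1-180, a subunit gene of chromatin assembly factor 1, had 98.0 ± 27.2 CPM in D17-c3 and 162 ± 10.5 CPM in S2-DRSC, and Rubicon had 32.1 ± 1.33 CPM in D17-c3 and 54.8 ± 2.76 CPM in S2-DRSC. Beside tll, CG15544 was higher in S2-DRSC, with 0.62 ± 0.122 CPM in D17-c3 and 4.18 ± 0.51 CPM in S2-DRSC. On either side of cad, the actin regulator gene dia did not pass (84.9 ± 10.9 CPM in D17-c3 and 81.7 ± 2.91 CPM in S2-DRSC) and the proteasome assembly gene Pomp was higher in D17-c3 (96.7 ± 6.31 against 66.7 ± 6.50 CPM). Beside hkb, CG1103 was higher in D17-c3 (47.8 ± 2.64 against 42.3 ± 1.29 CPM) and CG1090 was lower in D17-c3 (0.877 ± 0.105 against 1.19 ± 0.172 CPM). Beside hb, Cks85A, a cyclin-dependent kinase subunit gene, had 35.0 ± 4.33 CPM in D17-c3 and 31.2 ± 2.21 CPM in S2-DRSC (adjusted p = 0.167, edgeR). Next to btd, nej, the CBP histone acetyltransferase gene, stood at 431 ± 40.7 CPM in D17-c3 and 398 ± 11.3 CPM in S2-DRSC (adjusted p = 0.221, edgeR).

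**Figure D3:**
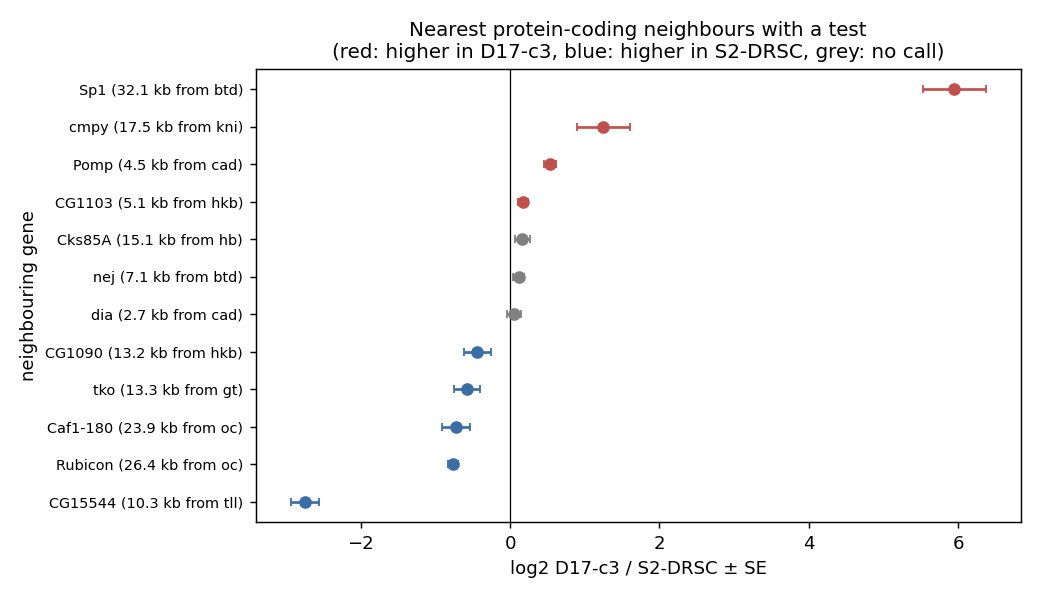
Log2 fold change of D17-c3 over S2-DRSC (points, with SE) of the 12 tested neighbours of the segmentation genes, with the gap in kb and the segmentation gene in brackets. Sp1 and CG15544 lie farthest from 0, at 5.95 and -2.75, and the others lie between -0.77 and 1.25.

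The pattern of gt over the 8 libraries was closest to those of CG33267 (Pearson r = 0.9994), CG10948 (r = 0.9993) and sprt (r = 0.9991) among 8928 genes with a mean of at least 1 CPM, on log2(CPM + 1). The sprt gene had 59.1 ± 6.05 CPM in D17-c3 and 10.9 ± 1.44 CPM in S2-DRSC. Likeness of this kind rests mainly on the difference between the lines, since 1547 genes (17.3%) had an r above 0.95 with gt.

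The genes that act on gap genes included a few with large differences between the lines. All 19 maternal and chromatin inputs found in the files were tested. Of these, 16 passed, beside 75.2% of all tested genes. D17-c3 had the higher level for 11, beside 39.1% of all tested genes, and S2-DRSC for 5, beside 36.1%. The median log2 fold change was 0.62, against 0.04 over all genes. Of the 11, vas and tor reached the minimum count through D17-c3, where they were higher. In S2-DRSC replicates 1 to 4 vas had 9, 6, 10 and 5 counts and tor 24, 18, 9 and 6. The counts of genes passing and the median are therefore a description. The largest difference was that of zld (zelda), which encodes the pioneer factor that opens early embryonic enhancers. It had 387, 253, 315 and 331 CPM in D17-c3 replicates 1 to 4, against 0.65, 0.756, 0.668 and 0.785 CPM in S2-DRSC replicates 1 to 4 (log2 8.81 ± 0.17, adjusted p = 5.41e-10, edgeR). The libraries of the lines lay far apart, with D17-c3 replicate 2 the lowest of its line. The gene tsl (torso-like), part of the terminal system upstream of tll and hkb, had 2.53 ± 1.02 CPM in D17-c3 and 0.192 ± 0.0502 CPM in S2-DRSC.

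Toward S2-DRSC, dl (dorsal), the NF-kappaB family gene of dorsoventral patterning and immunity, had 93.2 ± 18.7 CPM in D17-c3 and 232 ± 16.8 CPM in S2-DRSC (log2 -1.31 ± 0.13), and Mi-2, a chromatin remodeller gene that works with hb protein in silencing, had 392 ± 59.3 CPM in D17-c3 and 681 ± 19.6 CPM in S2-DRSC. With library totals only the number toward S2-DRSC was 3, not 5, as in both tests on TPM, and the calls of osk and trk were those lost. The anterior determinant bcd (bicoid), an activator of hb and of the head gap genes, was low in both lines, with 42, 15, 39 and 50 counts in D17-c3 libraries and 15, 13, 15 and 14 counts in S2-DRSC libraries.

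**Figure D4:**
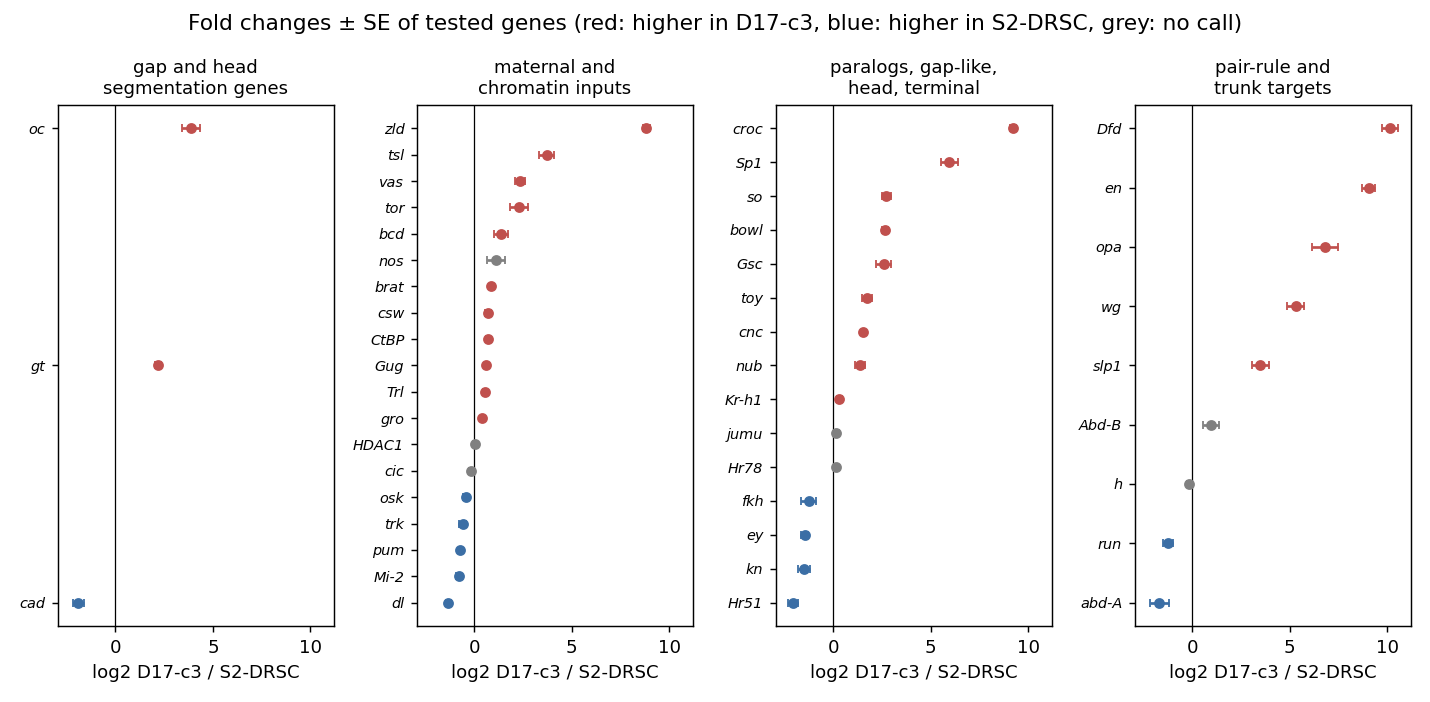
Log2 fold change of D17-c3 over S2-DRSC (points, with SE) for the tested segmentation genes and 3 lists of related genes. In each of these lists more tested genes were higher in D17-c3 than in S2-DRSC, 11 against 5, 9 against 4 and 5 against 2, while the shares over all tested genes were 39.1% toward D17-c3 and 36.1% toward S2-DRSC. Some genes of each list reached the minimum count through the line where they were higher, so these counts are a description. Members too low to be tested are not shown.

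Of 25 paralogs and other gap-like, head or terminal genes, 15 were tested. Of those tested 13 passed, beside 75.2% of all tested genes, 9 as higher in D17-c3 (39.1% of all) and 4 as higher in S2-DRSC (36.1% of all). The median log2 fold change was 1.39. Some of these, such as Sp1, Gsc, fkh and kn, reached the minimum count through the line where they were higher, and the 10 not tested had at most 21 counts in a library. The forkhead gene croc (crocodile), which acts in the head, led toward D17-c3 with 486 ± 67.0 CPM against 0.81 ± 0.0438 CPM, and was lowest in D17-c3 replicate 2 within its line (386 CPM). The eye and head homeobox gene so (sine oculis) followed among genes of at least 1 CPM, with 1.15 ± 0.238 CPM in D17-c3 and 0.172 ± 0.0194 CPM in S2-DRSC. Toward S2-DRSC, the nuclear receptor gene Hr51 had 0.404 ± 0.113 CPM in D17-c3 and 1.67 ± 0.25 CPM in S2-DRSC, and the eye selector gene ey (eyeless) had 0.659 ± 0.142 CPM in D17-c3 and 1.80 ± 0.038 CPM in S2-DRSC.

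Of 16 pair-rule and trunk genes, listed here as lying downstream of gap genes, 9 were tested and 7 passed. This share was near the 75.2% of all tested genes. D17-c3 was higher for 5 (39.1% of all) and S2-DRSC for 2 (36.1% of all). All 7 reached the minimum count through the line where they were higher. For Dfd, en, opa, slp1 and wg this line was D17-c3. The counts of genes passing and the median below are therefore a description. The Hox gene Dfd (Deformed) and the segment polarity gene en (engrailed) had the largest fitted fold changes. Dfd had 13.7 ± 4.45 CPM in D17-c3 and 1 count in each S2-DRSC library, below the floor, so the size of its fold change is uncertain. The en gene had 54.1, 29.5, 49.9 and 52.3 CPM in D17-c3 replicates 1 to 4, against 0.0992, 0.108, 0.0955 and 0.038 CPM in S2-DRSC replicates 1 to 4 (log2 9.04 ± 0.31, adjusted p = 1.10e-08, edgeR). The lines lay far apart, with D17-c3 replicate 2 the lowest of its line. The segment polarity gene wg (wingless), a Wnt ligand gene, had 4.28 ± 2.24 CPM in D17-c3 and 0.108 ± 0.0352 CPM in S2-DRSC. The log2 fold changes of the 9 tested genes had a median of 3.49, the value of slp1. Its S2-DRSC counts of 0, 3, 3 and 2 were at or below the floor, so this size is uncertain. The gene opa had 0 counts in every S2-DRSC library. Its mean level in D17-c3, from 11 to 15 counts per library, was 4.67 times the 3-count floor of an S2-DRSC library. With opa set at this bound, which leaves out counting error, the median was 2.22, the bound itself. The 5 became 8 with no minimum on counts and 3 with a minimum of 1 CPM in 4 libraries. The pair-rule gene eve, a direct target of gt in the textbook stripe circuit, had 2, 1, 2 and 2 counts in D17-c3 libraries and 4, 7, 3 and 6 counts in S2-DRSC libraries. The pair-rule gene h (hairy), also used in many later tissues, had 143 ± 22.5 CPM in D17-c3 and 159 ± 8.42 CPM in S2-DRSC, with no call.

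Markers of neuroblasts, where hb, Kr and tll are expressed again, summed to 10.7 to 24.3 TPM over 6 genes in D17-c3 and 4.35 to 4.96 TPM in S2-DRSC. In each line insc was the highest of them. Only 2 of the 6 reached 1 TPM in every D17-c3 library, and 1 in every S2-DRSC library. Over 5 neuron markers the sum ran the other way, at 10.08 to 12.82 TPM in D17-c3 and 19.96 to 21.66 TPM in S2-DRSC. The part of the neuroblast markers in the Kr result was not tested.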

How the data were processed

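RNA of 4 D17-c3 and 4 S2-DRSC flasks was made into stranded mRNA libraries, per the labels' protocols. The submitters' processing notes list the builds dm6 and BDGP6 and the tools RSEM, STAR 2.7.3a, Trim Galore 0.6.4, DESeq2 1.30.1, Subread 2.0.0 and featureCounts, with no role for any. The authors deposited expected counts, TPM, FPKM and transcript length per gene and library, per the file headers. FPKM entered no test.

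Expected counts were rounded and tested with edgeR 4.0.16 (TMM factors, filterByExpr with a minimum count of 10, quasi-likelihood test, all 8 libraries, design by line, Benjamini-Hochberg adjustment over all genes tested, threshold 0.05). Each SE is the size of the log2 fold change divided by the root of the F statistic. CPM used TMM-scaled library sizes. Intervals are 95% and exact, on counts summed over the libraries of a line. They cover counting error only and leave out the spread between flasks. Reads carry no molecular identifiers. The floor of 3 counts corresponds to 0.0272 to 0.0391 CPM before TMM scaling. The procedure was tested on simulated data. Positions are those of Ensembl's BDGP6 annotation, in which 17633 of 17730 identifiers were found. Transcript length was to be compared for genes with several lengths and at least 30 counts in every library, and 0 of the 10 genes met both.

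The 10 genes and the lists of related genes were chosen with earlier results of these data known. Besides the 10 genes, the text names of each list the 2 called genes per direction with the largest fold change among those whose mean reached 1 CPM in a line, the 3 genes most like gt, and neighbours of at least 1 CPM. Others (knrl, E5, Sp1, Gsc, fkh, kn, osk, trk, vas, tor, bcd, opa, slp1, wg, eve, h) were chosen after their values were seen. CLAMP, 1 of the 20 listed inputs, had no row under that symbol. Alternatives used other size factors, filters, DESeq2 1.42.0, limma 3.58.1 on counts or log2(TPM + 0.1) and log2(TPM + 1), the replicate number as a block, and each library left out.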

Additional observations from a re-analysis of the deposited data

Results flagged for a closer look

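Single libraries stood apart from the other 3 of their line in 10 of 46 groups of 4 looked at. The groups were the 10 genes, the list genes named by rule and the 3 genes most like gt, in each line. They include kni in S2-DRSC, which had 0 counts throughout and could not be flagged. Chance gives about 1 in 20 for independent, normally distributed values. The genes here share libraries and some have few counts, so that rate is no measure of an excess. In S2-DRSC replicate 4, gt was at 1.56 CPM against 2.14 to 2.20 CPM in the other S2-DRSC libraries, dl at 207 CPM against 238 to 242 CPM, CG33267 at 0.785 CPM against 1.40 to 1.43 CPM and sprt at 8.79 CPM against 11.4 to 11.9 CPM. CG33267 and sprt were picked for their likeness to gt over the same libraries. In D17-c3 replicate 2, oc was at 0.17 CPM against 0.125 to 0.132 CPM in the other D17-c3 libraries, croc at 386 CPM against 513 to 526 CPM and en at 29.5 CPM against 49.9 to 54.1 CPM. The flags of tll and ems come from 1 to 3 counts: tll at 0.0107 CPM in D17-c3 replicate 2 and 0.0294 CPM in S2-DRSC replicate 2, and ems at 0.0127 CPM in S2-DRSC replicate 4.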

How the results depend on the processing

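The fold change of gt passed in the same direction under all alternatives, with log2 values from 1.86 on log2(TPM + 1) to 2.35 on log2(TPM + 0.1), and 2.04 to 2.22 without 1 library. That of cad kept its direction and call wherever it was tested, at -0.80 on log2(TPM + 0.1) and -0.15 on log2(TPM + 1) in place of -1.88, and that of oc lost its call on log2(TPM + 1) only (log2 0.06, adjusted p = 0.0958). With a minimum of 1 CPM in 4 libraries oc and cad were not tested, which left 1 gene toward D17-c3 and 0 toward S2-DRSC. On log2(TPM + 1), 1 gene was higher in D17-c3. With no filter 4 were, Kr and kni being added, and Kr made it 3 without D17-c3 replicate 2 or any 1 S2-DRSC library, so the count ran from 2 to 3 without 1 library, and that toward S2-DRSC stayed at 1. The median log2 fold change of the tested genes was 2.17, 1.53 with no filter (10 genes), 2.34 with library totals only, 0.51 on log2(TPM + 0.1), 0.060 on log2(TPM + 1) and 2.08 to 2.34 without 1 library. With 3 genes tested this median is the value of 1 gene, gt in the main test and oc in both tests on TPM. The genes oc and cad reached the minimum count through the line where they were higher, so the median is a description. Library totals moved the median of all genes from 0.04 to 0.21 and the share of calls higher in D17-c3 from 52% to 60%, and the tests on TPM moved that share to 62.9%. Inputs higher in S2-DRSC numbered 3 in place of 5 with library totals only and in both tests on TPM. Gap-like and head genes higher in S2-DRSC numbered 2 in place of 4 at 1 CPM and on log2(TPM + 1). Pair-rule and trunk genes higher in D17-c3 numbered 8 with no filter and 3 at 1 CPM in place of 5, and those higher in S2-DRSC 0 at 1 CPM and 1 in both tests on TPM in place of 2. Fewer genes tested at 1 CPM accounts for the losses there, and the cause of the other changes was not tested. With the replicate number as a block the log2 fold change of gt was 2.18 and the calls of gt, oc and cad held. The correlations of deviations between same-numbered libraries of the lines were 0.0424, 0.199, -0.141 and 0.0689. Those between unlike-numbered libraries ran from -0.261 to 0.364. These values show no pairing by number, and so few cannot exclude one. The tests with no filter that left out 1 library were added after seeing the data. Depth limits hb, kni, tll, hkb, ems and btd, each at 13 counts or fewer in every library.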
